A study of Mus musculus with 24 samples.

Results

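The effect of Rsl24d1 siRNA at day 4 of retinoic acid (RA) treatment was measured in cells that also expressed an ectopic copy of the gene. The 6 libraries are those whose titles combine RA differentiation, the rescue and either siRNA, 3 with control siRNA (si-CTL) and 3 with Rsl24d1 siRNA (si-Rsl24d1), out of 24 RNA-seq libraries of the series. All 6 come from CGR8 mouse embryonic stem cells (ESCs) that carry an RSL24D1 expression vector, received doxycycline to switch it on, were transfected with siRNA and were then kept for 4 days in 10 nM RA. The other 18 libraries hold the day 4 cells without doxycycline, which the labels describe as carrying an empty vector, and the day 0 cells with and without doxycycline, each again with either siRNA. According to the methods of the study, the rescue line was made with piggyBac vectors and a short puromycin selection, and the ectopic mRNA resists the siRNA. The labels and the methods differ on the library kit (poly-A selection or total RNA), the medium, the time of collection after transfection and whether LIF, which maintains self-renewal, was present with RA at day 4. The study calls its replicates biological, while the labels do not say whether they are separate cultures, so p-values describe the spread between these libraries, which may be technical.

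RSL24D1 is a ribosome biogenesis factor that rides on precursors of the large (60S) ribosomal subunit in the nucleus and is exchanged in the cytoplasm for its paralog, the ribosomal protein RPL24. In ESC cultures a small, changing fraction of cells passes through a state that resembles the embryo at the 2-cell stage, when the embryonic genome is first transcribed. That state is known for the Zscan4 genes, which encode zinc finger proteins linked to telomere maintenance, and for other multicopy genes that lie side by side on a few chromosomes.

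Such multicopy genes formed the runs of neighbouring genes that rose in this comparison, so the 250 bases upstream of the start of 5 of them are shown first. Zscan4c (chr7:11005495-11005744, + strand), Zscan4d (chr7:11166149-11166398, - strand) and Zscan4f (chr7:11397665-11397914, + strand) belong to the Zscan4 run on chromosome 7. Gm4027 (chr12:87618659-87618908, + strand) and BB287469 (chr12:87816327-87816576, + strand) belong to a run of unnamed genes on chromosome 12. The sequences are those of RefSeq on GRCm38.p6, 5' to 3', and capitals mark the letters TATAAA and TGATTNAAT (N is any base), searched on both strands.
Zscan4c: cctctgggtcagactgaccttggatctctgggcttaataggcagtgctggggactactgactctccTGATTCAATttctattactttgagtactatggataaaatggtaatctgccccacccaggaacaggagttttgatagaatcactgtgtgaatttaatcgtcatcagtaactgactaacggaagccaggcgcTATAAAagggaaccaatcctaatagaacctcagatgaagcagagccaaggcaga
Zscan4d: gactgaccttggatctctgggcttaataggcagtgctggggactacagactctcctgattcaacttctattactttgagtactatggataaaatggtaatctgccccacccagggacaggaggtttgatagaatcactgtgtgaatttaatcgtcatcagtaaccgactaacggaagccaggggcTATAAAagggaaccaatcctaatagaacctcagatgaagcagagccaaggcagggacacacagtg
Zscan4f: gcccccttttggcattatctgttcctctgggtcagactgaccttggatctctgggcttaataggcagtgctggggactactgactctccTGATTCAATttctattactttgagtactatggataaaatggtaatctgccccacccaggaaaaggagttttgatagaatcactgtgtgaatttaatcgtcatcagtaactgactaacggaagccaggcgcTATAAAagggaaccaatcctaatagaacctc
Gm4027: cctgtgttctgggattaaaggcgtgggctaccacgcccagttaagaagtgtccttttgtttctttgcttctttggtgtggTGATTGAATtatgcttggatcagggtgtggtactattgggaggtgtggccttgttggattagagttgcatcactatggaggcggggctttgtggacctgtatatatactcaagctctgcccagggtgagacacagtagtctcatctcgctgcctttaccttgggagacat
BB287469: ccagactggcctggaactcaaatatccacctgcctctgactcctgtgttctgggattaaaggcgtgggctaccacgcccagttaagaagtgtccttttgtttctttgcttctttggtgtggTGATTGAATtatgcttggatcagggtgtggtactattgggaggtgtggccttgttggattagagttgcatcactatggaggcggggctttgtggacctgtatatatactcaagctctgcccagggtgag

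Within a run the windows were near copies of each other. Zscan4c and Zscan4d shared 97.1% of aligned bases, Zscan4c and Zscan4f 99.6%, and Gm4027 and BB287469 100% over 209 bases. Between the runs the best ungapped alignment reached only 33.2% to 35.2%. TATAAA was present in all 4 Zscan4 windows that RefSeq gave (Zscan4b, Zscan4c, Zscan4d and Zscan4f) and in none of the 3 windows of the chromosome 12 run. TGATTNAAT was present in 3 of those 4 Zscan4 windows, in 2 of the 3 windows of chromosome 12 and in 1 of the 2 windows of another run, on chromosome 13. Of all 32851 windows of this length, 12.4% held TATAAA and 0.658% held TGATTNAAT. Of the 14619 windows of genes tested 6.88% and 0.28% did, and of the 44 windows of upregulated genes 18.2% and 13.6% did. The letters were picked after these sequences had been read and the copies are not independent of each other, so the shares are a description only. Only 37 of the 114 upregulated genes had a window in RefSeq.

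No change in Rsl24d1 itself passed the test under rescue at day 4. Expression is given throughout as log2(TPM + 1), TPM being transcripts of a gene out of a fixed total per library, corrected for transcript length. Rsl24d1 (chr9:73113426-73123333, + strand, GRCm38) was at 6.99, 6.84 and 6.85 in si-CTL and at 7.07, 7.05 and 7.00 in si-Rsl24d1. The si-Rsl24d1 libraries were thus all slightly higher, by 0.15 ± 0.070 (SE, n = 3 per group, adjusted p = 0.19 in limma), with an interval of 2 SE on either side from 0.0075 to 0.29. In TPM the group levels were 118 and 131. The symbol may combine endogenous and ectopic transcripts, so this value does not measure how much endogenous mRNA was left. Without rescue the day 4 libraries did not show a depletion on this scale either (6.60, 6.67 and 6.61 in si-CTL, 6.5, 6.61 and 6.65 in si-Rsl24d1, a difference of -0.041, adjusted p = 0.66). Under median of ratios scaling between libraries the difference was -0.21 without rescue (adjusted p = 0.0026) and 0.19 with it (adjusted p = 0.016). The effect of the siRNA then differed between cells with and without rescue by 0.40 (adjusted p = 0.0019), against 0.19 without that scaling (adjusted p = 0.16). At day 0 under rescue, unscaled, Rsl24d1 was lower in si-Rsl24d1 by 0.50 (7.31, 7.24 and 7.21 against 6.70, 6.60 and 6.94, adjusted p = 2.2e-05). That effect differed between the days by 0.65 (adjusted p = 9.8e-05).

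The libraries of the 2 groups were otherwise close. Across genes, their correlation was 0.9888 to 0.9911 within a group and 0.9827 to 0.9865 between the groups, and no library duplicated another. The values keep no read counts, so sequencing depth is not known. Genes with a mean of at least 0.5 over the 24 libraries were tested, 16447 in all. A gene was called differentially expressed when its adjusted p was below 0.01 and TPM + 1 changed over 1.8-fold. That is a difference of more than 0.848 in log2(TPM + 1). The added 1 shrinks the fold of genes at low levels, so some that miss this threshold exceed 1.8-fold in TPM itself. Fabp7, for example, differed by 0.72 while its TPM ratio was 2.66 (0.644 TPM in si-CTL, 1.71 TPM in si-Rsl24d1). The siRNA upregulated 114 genes (0.693% of those tested) and downregulated 6 (0.0365%), 120 in all (0.73%). By adjusted p alone, without the fold threshold, 384 were higher (2.33%) and 581 lower (3.53%), 965 in all (5.87%). The direction of the balance thus depended on the size of change that was asked for. The median difference over all genes was -0.044. The ranges of the 2 groups did not overlap for 5852 genes (35.6%), nor for any of the 120 called genes.

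The upregulated genes were mostly expressed at low levels and mostly had no name. Their group means had a median of 2.04 in si-CTL and 3.25 in si-Rsl24d1, and the median difference was 1.19, with a range from 0.848 to 3.59. Of the 114, 77 (67.5%) have only a clone or predicted gene name, against 16.7% of all genes tested. In gencode vM21, 56 are protein coding, 15 are pseudogenes and 31 are long non-coding or unconfirmed transcripts, and 12 could not be matched. Over 50% of the 31-base words in their transcripts also occur in transcripts of another gene for 59 of the 102 that have transcripts there (57.8%), against 8.78% of all genes. Reads from such copies cannot be assigned to 1 gene with certainty, so the level of any single copy is uncertain. When only genes that share at most 10% of their words were tested, an alternative chosen after seeing the data, 27 upregulated and 5 downregulated genes were called. The other 88 of the 120 had been left out of that test, and all 32 that stayed in it were called again.

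**Figure D1:**
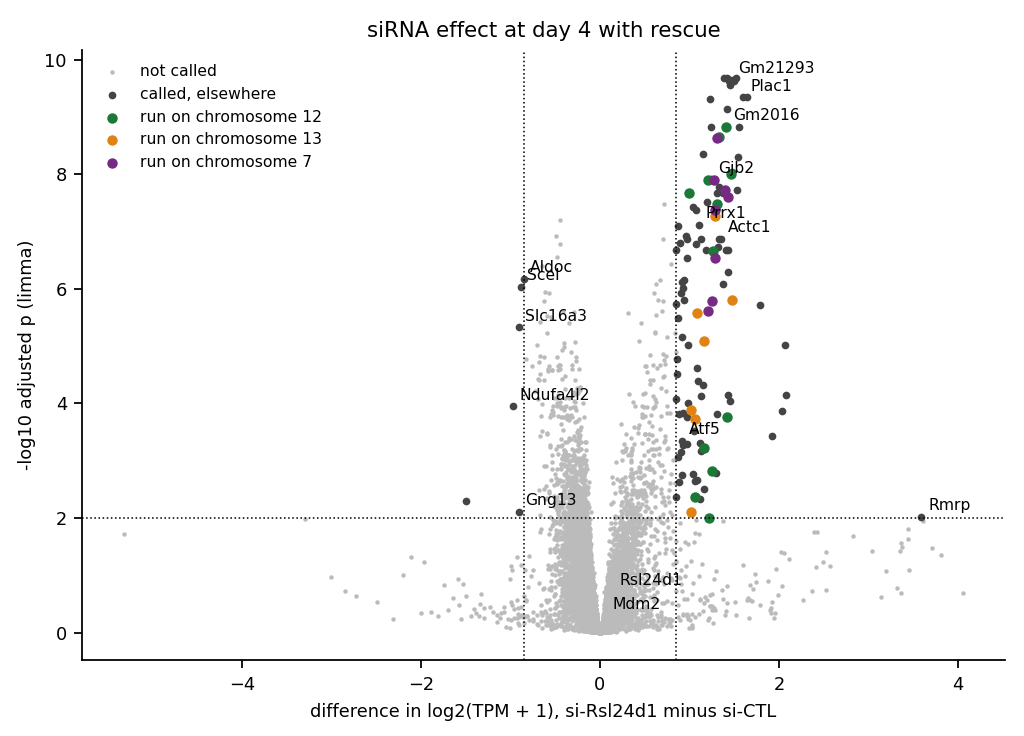
Difference between si-Rsl24d1 and si-CTL at day 4 with rescue on the log2(TPM + 1) scale (x axis) against the size of the adjusted p on a negative log10 scale (y axis), 1 point per gene tested, with the genes of the runs on chromosomes 7, 12 and 13 in colour. The called genes lie almost all on the right, 114 against 6, and the coloured runs sit close together between 1.0 and 1.47.

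The Zscan4 genes rose together. Zscan4f (chr7:11397915-11402318) was at 4.70, 4.46 and 4.34 in si-CTL and at 5.92, 5.84 and 5.93 in si-Rsl24d1, a rise of 1.39 ± 0.10 (SE, n = 3 per group, adjusted p = 1.9e-08) from 21.8 to 58.5 TPM. Zscan4c (chr7:11005745-11010547) went from 3.39, 3.43 and 3.37 to 4.77, 4.68 and 4.59 (1.28 ± 0.10, adjusted p = 4.2e-08). The groups were far apart beside their own spread in both genes. Zscan4d (chr7:11161374-11166159), whose words are less often shared than those of its neighbours (65.0%), went from 2.86, 2.76 and 2.65 to 4.12, 4.04 and 3.93, a rise of 1.27 (adjusted p = 1.3e-08). Zscan4e rose by 1.43, Zscan4-ps2 by 1.31, Zscan4a by 1.29, Zscan4-ps3 by 1.26 and Zscan4b by 1.2. All 8 lie between positions 10794242 and 11614112 of chromosome 7, where 11 genes were tested, and the 3 that were not called are Gm45551, Gm7789 and Zscan4-ps1. The 8 together made up 55.0 to 64.0 TPM in the si-CTL libraries and 158 to 171 TPM in the si-Rsl24d1 libraries. The median shared part of their words was 91.6%, which is why the sum is given beside the single copies. In RNA from whole cultures, a larger fraction of cells in this state and more RNA per such cell cannot be told apart.

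A pair of further runs of neighbouring genes behaved alike. A run was taken as at least 5 upregulated genes with no gap over 1 Mb, and the 3 runs together hold 27 of the 102 upregulated genes that have a position. On chromosome 12, 12 of 14 tested genes between 87514316 and 88324026 rose, by a median of 1.26 (1.0 to 1.46). This stretch holds Gm8300, Gm4027, Gm21936, BB287469, Gm1995, Gm2016, Gm2022, Gm2035, Gm2056, Gm8332, Gm5662 and Gm5039. Gm5039, the least copied of those described (36.5% of words shared), went from 3.13, 2.74 and 2.76 to 4.31, 4.34 and 4.36 (1.46 ± 0.10, adjusted p = 9.7e-09). Gm2016 went from 3.16, 3.32 and 3.13 to 4.76, 4.57 and 4.50 (1.41, adjusted p = 1.5e-09). The 12 genes summed to 67.5 to 75.6 TPM in si-CTL and 182 to 199 TPM in si-Rsl24d1. On chromosome 13, 7 of 9 tested genes between 119912095 and 120318178 rose, by a median of 1.09 (1.02 to 1.47), and summed to 37.3 to 45.4 TPM against 105 to 112 TPM. They include Tcstv3, a gene of the 2-cell stage (1.68, 1.42 and 1.23 against 2.27, 2.61 and 2.49, a rise of 1.02, adjusted p = 0.00013), and BC147527 (0.50, 0.84 and 0.85 against 1.79, 1.83 and 1.76, a rise of 1.06, adjusted p = 0.00019). The others are Gm21761, B020031M17Rik, Gm20767, Gm21818 and Gm21762. That the sums of the 3 runs do not overlap between the siRNAs follows from the choice of their genes, none of which overlapped singly.

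Known genes of the 2-cell stage were taken as a list, part of which lies in these runs. The list of 10 had 8 that were tested. Of these 5 were upregulated (Zscan4a, Zscan4c, Zscan4d, Zscan4f and Tcstv3), against 0.693% of all genes. All 8 were higher by adjusted p alone, against 2.33% of all genes. The 5 upregulated genes all lie in the runs, and the Zscan4 copies share many words (a median of 91.6% over their run). The members are thus not independent of each other, and the shares are a description only. The median of the list was 1.15, against -0.044 over all genes, and its summed level was 40.3 to 49.1 TPM in si-CTL and 114 to 119 TPM in si-Rsl24d1. The remaining 3 did not pass the fold threshold. Zfp352, a zinc finger gene on chromosome 4, was at 0.56, 0.56 and 0.51 against 1.21, 1.28 and 1.25, a difference of 0.70 (adjusted p = 1.3e-07). Tdpoz4, a speckle-type protein gene on chromosome 3, differed by 0.59 (adjusted p = 0.0023) and Usp17la, a deubiquitinating enzyme gene, by 0.39 (adjusted p = 0.0069). A further copied gene, Gm21293 on chromosome 10 (98.5% of words shared), had the smallest adjusted p of the genes described here. It went from 6.16, 6.01 and 5.99 to 7.62, 7.46 and 7.51, a rise of 1.48 ± 0.076 (adjusted p = 2.2e-10) from 65.5 to 184 TPM.

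**Figure D2:**
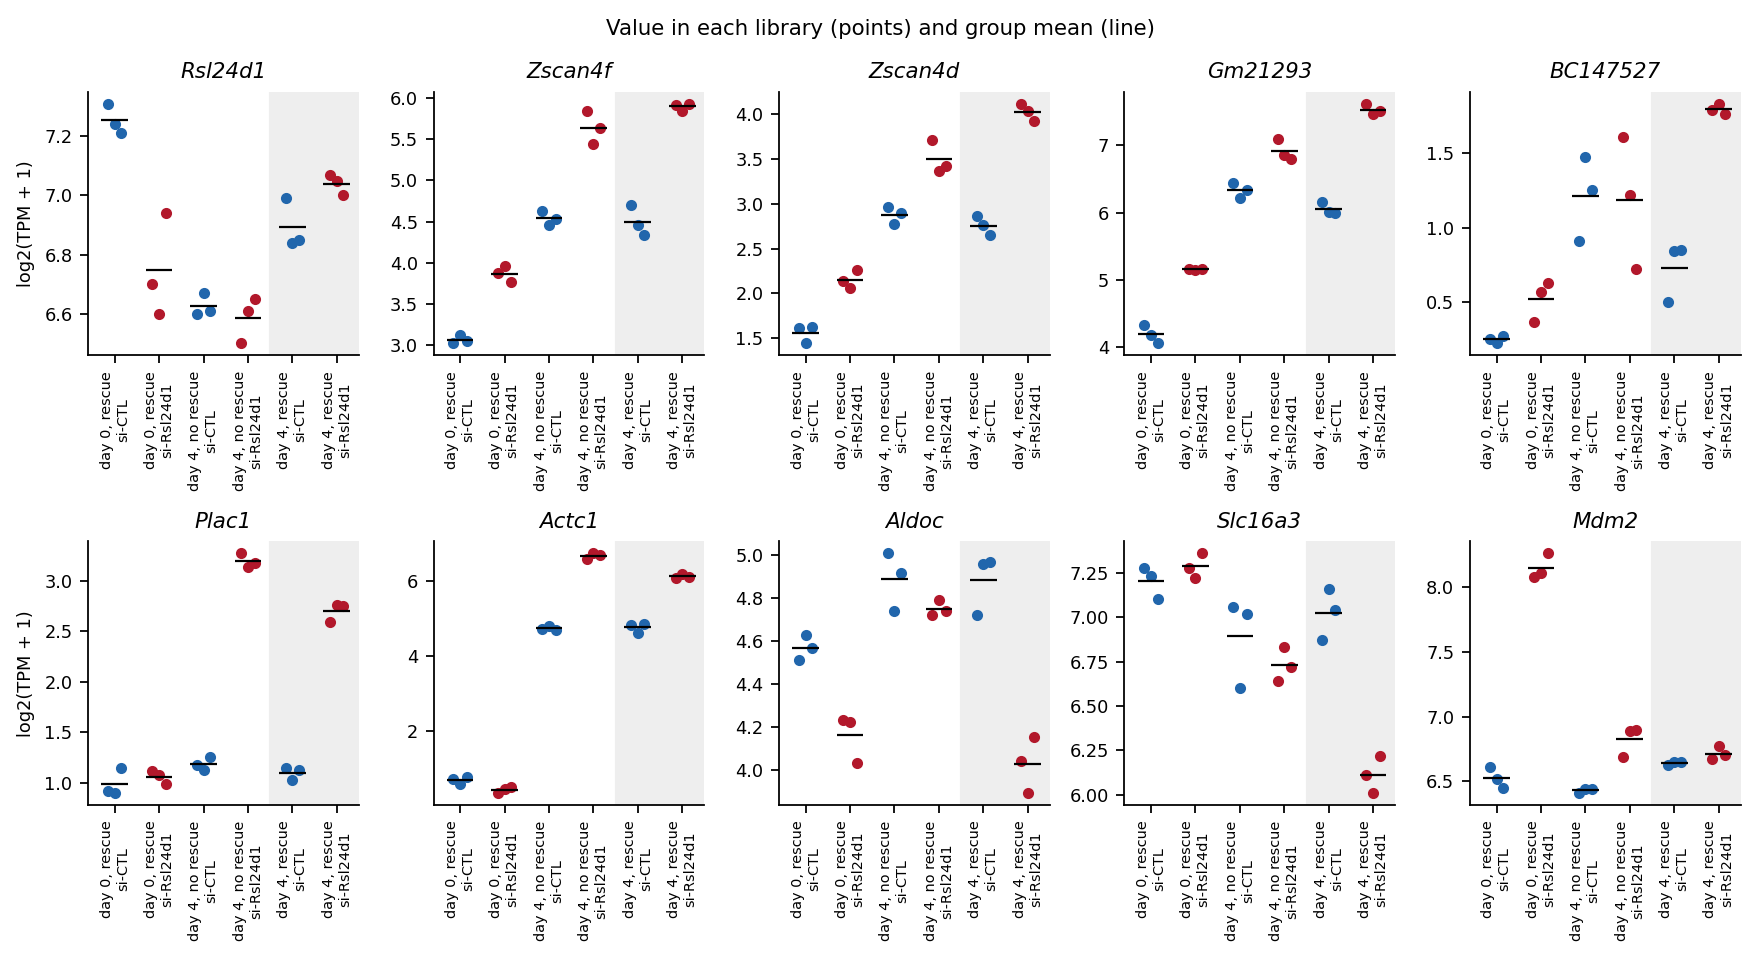
Expression as log2(TPM + 1) of 10 genes (y axis, 1 panel per gene) in the libraries of 6 groups (x axis), with si-CTL in blue and si-Rsl24d1 in red, points for libraries, lines for group means and the day 4 rescue groups shaded. Zscan4f stands at 4.34 to 4.70 in shaded si-CTL and at 5.84 to 5.93 in shaded si-Rsl24d1, whereas Mdm2 stands at 6.63 to 6.65 and 6.67 to 6.77 there.

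Several genes not placed in the runs rose as well. Plac1, an X-linked gene named for its expression in the placenta, went from 1.14, 1.03 and 1.12 to 2.59, 2.76 and 2.75, a rise of 1.60 ± 0.090 (SE, n = 3 per group, adjusted p = 4.5e-10). Actc1, which encodes cardiac alpha-actin, went from 4.83, 4.6 and 4.85 to 6.08, 6.17 and 6.11 (1.36 ± 0.12, adjusted p = 1.4e-07), that is, from 26.2 to 68.5 TPM. Gjb2, the gap junction protein connexin 26, went from 0.92, 0.74 and 1.12 to 2.12, 2.27 and 2.12 (1.24 ± 0.088, adjusted p = 1.2e-08). None of these 3 genes shared as much as 1% of its words with another, and in each the libraries of the 2 siRNAs were well apart. Prrx1, a homeobox gene of mesenchyme, rose by 1.11 (0.81, 0.68 and 0.75 against 1.92, 1.71 and 1.92, adjusted p = 7.6e-08), and Col3a1, a fibrillar collagen, by 1.04 (3.99, 3.76 and 4.24 against 4.87, 4.94 and 5.29, adjusted p = 0.0017). Eif4a3l1, which is named for its likeness to the RNA helicase eIF4A3 and has no position in gencode vM21, went from 2.51, 2.23 and 2.33 to 3.66, 3.72 and 3.67 (1.33, adjusted p = 1.4e-07). Among unnamed loci, Gm50179 rose by 2.08, AA684185 by 2.07 and Gm43391 by 2.04. Gm43391 shared 65.3% of its words, and for Gm50179, AA684185 and Eif4a3l1 the shared part is not known. The call of Col3a1 was lost without si-CTL replicate 2 (0.92, adjusted p = 0.015) and without si-Rsl24d1 replicate 3 (0.91, adjusted p = 0.013).

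The largest rise among the called genes was that of Rmrp, and its libraries spread widely. Rmrp is the RNA component of RNase MRP and carries no poly-A tail. It was at 2.60, 3.24 and 0.61 in si-CTL and at 4.87, 6.96 and 5.39 in si-Rsl24d1, a difference of 3.59 ± 0.86 (SE, n = 3 per group, adjusted p = 0.0094). The groups did not overlap, but the call was lost when any of the 6 libraries was left out (2.82 to 4.14, adjusted p = 0.011 to 0.062). The summed level of 9 non-polyadenylated RNAs was 25 to 97.8 TPM in si-CTL and 258 to 1000 TPM in si-Rsl24d1, with no overlap. The sum also varied widely within other groups. It was 78.9 to 856 TPM in si-CTL at day 4 without rescue and 393 to 949 TPM in si-CTL at day 0 with rescue. Of the list only Rmrp was called or passed the adjusted p alone, 8 of 9 had positive differences, and Rny3 was listed at 0 in all 3 si-CTL libraries, so no median is given. The level of such RNAs in a library depends on how RNA is selected for it, and their part in the other differences between the groups was not tested.

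The 6 downregulated genes were Slc16a3, Aldoc, Ndufa4l2, Scel, Gng13 and Gm43802. Slc16a3, which exports lactate, went from 6.87, 7.16 and 7.04 in si-CTL to 6.11, 6.01 and 6.22 in si-Rsl24d1, a fall of 0.91 ± 0.10 (SE, n = 3 per group, adjusted p = 4.7e-06) from 130 to 68.4 TPM. Aldoc, an aldolase of glycolysis, went from 4.72, 4.96 and 4.97 to 4.04, 3.89 and 4.15 (-0.85 ± 0.082, adjusted p = 6.6e-07). Ndufa4l2, a mitochondrial protein gene that is induced when oxygen is low, went from 1.85, 2.05 and 1.93 to 1.01, 0.76 and 1.13 (-0.97 ± 0.14, adjusted p = 0.00011). In these 3 genes every si-Rsl24d1 library was below every si-CTL library. Scel, which encodes sciellin of the epidermal envelope, fell by 0.89 (1.34, 1.5 and 1.55 against 0.47, 0.54 and 0.73, adjusted p = 9.2e-07). Gng13, a G protein gamma subunit, fell by 0.91 (1.10, 1.74 and 1.95 against 0.82, 0.63 and 0.64, adjusted p = 0.0077). The unnamed Gm43802, all of whose words occur in another gene, was at 1.90, 2.20 and 1.82 against 0, 0 and 1.45 (-1.49, adjusted p = 0.0051). The 2 last calls were lost without most of the libraries taken singly, Gng13 at -0.73 to -0.97 and Gm43802 at -1.25 to -1.57. Aldoc fell short of the fold threshold without si-CTL replicate 2 (-0.82), si-CTL replicate 3 (-0.81) or si-Rsl24d1 replicate 2 (-0.79). Scel did so without si-CTL replicate 3 (-0.85) or si-Rsl24d1 replicate 1 (-0.83), and Slc16a3 without si-CTL replicate 2 (-0.84). Under median of ratios scaling 4 genes were downregulated, and Aldoc (-0.81) and Gng13 (-0.88, adjusted p = 0.012) were not called.

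Genes of glycolysis and the hypoxia response were lower as a list, in small steps. By adjusted p alone 13 of 20 tested were lower and 0 higher, against 3.53% and 2.33% of all genes. None of the 20 passed both thresholds, and their median was -0.45. Their summed level was 10100 to 11000 TPM in si-CTL and 7860 to 8530 TPM in si-Rsl24d1, with no overlap. Egln3, a prolyl hydroxylase that marks HIF for destruction, had the lowest value of the list (3.83, 4.12 and 3.99 against 3.15, 3.09 and 3.21, a difference of -0.83, adjusted p = 1.6e-05), just short of the fold threshold. Aldoa, the main aldolase, was at 2020 TPM against 1320 TPM (-0.61 ± 0.061, adjusted p = 1.1e-06). Ndrg1, which responds to hypoxia, had the highest value (0.19, adjusted p = 0.055). Outside the list, the genes with the smallest adjusted p among those lower but not called were Ly6e, a cell surface protein (-0.45, adjusted p = 6.2e-08), Car2, a carbonic anhydrase (-0.49, adjusted p = 1.2e-07), Ldhb, a lactate dehydrogenase subunit (-0.45, adjusted p = 1.7e-07), and Gfpt2, which draws sugar into hexosamines (-0.48, adjusted p = 2.8e-07). Cntd1, a cyclin-like gene of meiosis, was lower by 0.65 (adjusted p = 4e-07).

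Genes of cholesterol synthesis were lower too. All 16 had negative differences, from -0.58 in Insig1 to -0.21 in Nsdhl, with a median of -0.33. By adjusted p alone 9 were lower, against 3.53% of all genes, although none passed the fold threshold. Insig1, which holds the SREBP pathway in check and is itself one of its targets, was at 5.79, 5.82 and 5.81 in si-CTL and at 5.24, 5.18 and 5.26 in si-Rsl24d1 (adjusted p = 2.7e-05). Nsdhl, a sterol dehydrogenase, was at 22.1 TPM against 19.0 TPM (adjusted p = 0.0049). The list summed to 856 to 887 TPM against 659 to 711 TPM. Under median of ratios scaling the medians of the glycolysis and cholesterol lists were still negative, at -0.41 and -0.29.

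**Figure D3:**
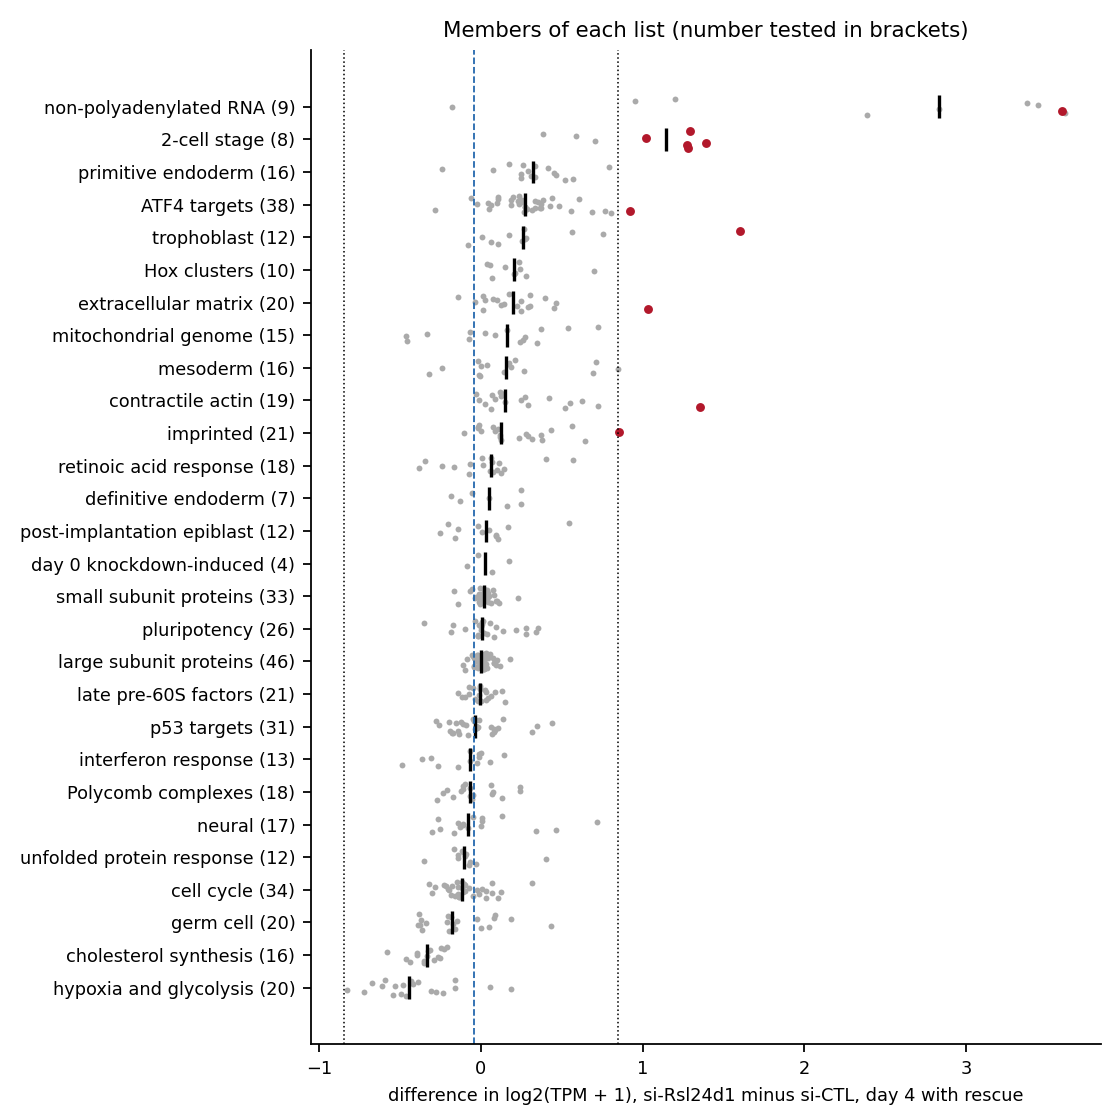
Difference between si-Rsl24d1 and si-CTL at day 4 with rescue on the log2(TPM + 1) scale (x axis) for the tested members of 28 gene lists (y axis), 1 point per gene, called genes in red, black bars for list medians, a dashed blue line for the median of all genes (-0.044) and dotted lines at the fold threshold (0.848 on either side). The 2-cell stage list (median 1.15) lies to the right, and the hypoxia and glycolysis (-0.45) and cholesterol synthesis (-0.33) lists lie to the left.

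No ribosomal gene passed the test. None of 21 late pre-60S factors, 46 large subunit proteins and 33 small subunit proteins was called or passed the adjusted p alone, and their medians were -0.0031, 0.0021 and 0.020. Rpl24, the paralog that takes the place of RSL24D1, was at 1570 TPM against 1560 TPM (-0.0070 ± 0.066, SE, n = 3 per group). Eif6 and Gtpbp4, a pair of factors of the same particle, differed by 0.0029 and -0.018, and Rpl8 by -0.010. Within the lists the values ran from -0.14 in Rpf2 to 0.15 in Rsl24d1 for the factors, from -0.11 in Rpl13 to 0.18 in Rpl29 for the large subunit and from -0.17 in Rps27 to 0.23 in Rps12 for the small subunit. The interval of 2 SE on either side ran from -0.138 to 0.124 for Rpl24 and from -0.0795 to 0.0592 for Rpl8.

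Stress targets moved in part. For p53, which is stabilised when ribosome assembly fails, none of 31 targets was called and the median was -0.037. Mdm2, its negative regulator, was at 6.63, 6.65 and 6.65 against 6.67, 6.77 and 6.70 (0.069 ± 0.058, adjusted p = 0.51), and Cdkn1a, the cell cycle inhibitor p21, differed by -0.082 (adjusted p = 0.30). The extremes of the list were Dram1, an autophagy gene (0.44, adjusted p = 0.013), and Ddb2, of DNA repair (-0.28, adjusted p = 0.0061), and Trp53 itself differed by 0.020. For ATF4, the factor of amino acid stress, 1 of 38 targets was called and the median was 0.27. By adjusted p alone 12 of them were higher and 1 lower, against 2.33% and 3.53% of all genes. The called gene was Atf5, a related factor, at 3.24, 2.83 and 2.86 against 4.04, 4.09 and 3.57 (0.92 ± 0.15, adjusted p = 0.00045). Its call was lost without si-CTL replicate 2 (0.85, adjusted p = 0.0046) and without si-Rsl24d1 replicate 2 (0.83). Chac1, which degrades glutathione, was higher by 0.80 (adjusted p = 0.0089), short of the fold threshold. In the unfolded protein response list none of 12 was called and the median was -0.10, from -0.35 in Sdf2l1 to 0.40 in Herpud1.

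Few markers of cell identity outside the 2-cell stage passed the test. None of 26 pluripotency genes was called, with a median of 0.0066. Pou5f1 was at 475 TPM against 502 TPM, Nanog at 345 TPM against 341 TPM and Zfp42 at 483 TPM against 532 TPM, so markers of the undifferentiated state were still high in both groups at day 4. The pluripotency extremes were Dppa2 (0.35) and Utf1 (-0.35). No member was called of 12 post-implantation epiblast genes (median 0.029, from -0.25 in Pou3f1 to 0.55 in Foxd3), 17 neural genes (-0.079, from -0.30 in Pax6 to 0.72 in Fabp7), 7 definitive endoderm genes (0.050, from -0.19 in Eomes to 0.25 in Sox17), 20 germ cell genes (-0.18, from -0.39 in Sycp3 to 0.44 in Nanos3) and 18 genes of the RA response (0.060, from -0.38 in Stra8 to 0.57 in Meis1). The same held for 18 Polycomb genes (-0.070, from -0.27 in Ezh1 to 0.24 in Epop), 34 cell cycle genes (-0.12, from -0.32 in Bub1 to 0.31 in Myc), 13 interferon response genes (-0.066, from -0.49 in Oasl2 to 0.14 in Ddx58) and 15 genes of the mitochondrial genome (0.16, from -0.46 in mt-Nd6 to 0.72 in mt-Rnr2).

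Some lineage lists sat above the median of all genes. Primitive endoderm genes had a median of 0.32 over 16 genes with none called, from -0.24 in Apoe to 0.79 in Cubn, and their summed level overlapped between the groups (918 to 933 TPM against 908 to 963 TPM). Mesoderm genes had a median of 0.16 over 16 genes and summed to 30.4 to 32.6 TPM against 43.3 to 45.3 TPM. Twist1, a mesodermal transcription factor, was the highest of them (2.42, 2.27 and 2.41 against 3.08, 3.21 and 3.36, a difference of 0.85, adjusted p = 1.3e-05) and sat just under the fold threshold, which it passed under median of ratios scaling (0.88), and Tbx6 was the lowest (-0.32). Of 12 trophoblast genes Plac1 alone was called, with a list median of 0.26 and a sum of 529 to 578 TPM against 638 to 666 TPM. All 10 tested Hox genes had positive differences, from 0.036 in Hoxd8 to 0.70 in Hoxb2, with a median of 0.21 and no call. Of 19 contractile actin genes 1 was called (Actc1) and 8 were higher by adjusted p alone (median 0.15), against 2.33% of all genes. Of 20 extracellular matrix genes 1 was called (Col3a1, median 0.20). Of 21 imprinted genes 7 were higher by adjusted p alone (2.33% of all genes were) and 1 was called (median 0.13). That gene was Plagl1, a zinc finger factor, at 3.38, 3.19 and 3.49 against 4.05, 4.32 and 4.26 (0.86 ± 0.12, adjusted p = 8.3e-05). Plagl1 fell below the fold threshold without si-CTL replicate 2 (0.77), si-Rsl24d1 replicate 2 (0.80) or si-Rsl24d1 replicate 3 (0.83).

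The same siRNA contrast at day 4 without rescue shares no library with the one described and was set beside it. Without rescue 238 genes were upregulated (1.45%) and 30 downregulated (0.182%), 268 in all (1.63%). Under median of ratios scaling 118 were upregulated and 48 downregulated, and the overlaps given here were counted without that scaling. Of the 114 genes upregulated under rescue, 53 were also upregulated without it, which is 46.5% of the one list and 22.3% of the other. The same sign was found in 112 of the 114, but the median of all genes without rescue was 0.13, so most genes were positive there. The median difference of the 114 was 1.19 with rescue and 0.83 without. Both lists held Zscan4a, Zscan4c, Zscan4e, Zscan4f, Plac1, Actc1, Gjb2, Prrx1, Col3a1 and Plagl1. The Zscan4 run had a median of 1.29 with and 1.02 without rescue, with 6 of its 8 genes called without, and the chromosome 12 run 1.26 and 0.86, with 6 of 12 called. The chromosome 13 run had 1.09 and 0.20, with none of its 7 called without rescue. The runs were built from genes called under rescue, so a comparison of these medians and counts favours rescue from the start. Under median of ratios scaling Zscan4-ps2 (0.81) and Zscan4-ps3 (0.84) fell short of the fold threshold without rescue. The 238 genes upregulated without rescue had a median of 1.0 there and of 0.40 under rescue, and each list was chosen for its rise in one of the contrasts. None of the 6 genes downregulated under rescue was called without it, and 4 of them had the same sign. Scel was lower by 0.76 without rescue (adjusted p = 2.2e-06) and Gng13 by 0.58 (adjusted p = 0.033).

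Whether the effect of the siRNA differed between cells with and without rescue was tested as an interaction. It was called for 84 genes (0.511%), with the rise larger or the fall smaller under rescue for 16 (0.0973%) and the reverse for 68 (0.413%). This split depended on the scaling. Over all genes the median of the interaction was -0.17 and that of the effect without rescue 0.13, and under median of ratios scaling 47 genes were called, 31 and 16 in the 2 directions. The count also ranged from 42 without si-Rsl24d1 replicate 2 of the unrescued cells to 289 without replicate 1 of the same group, and was 132 without si-CTL replicate 3 and 53 without si-Rsl24d1 replicate 3 of the unrescued cells. The genes called under both scalings were 15 in the first direction and 16 in the second. The first group holds 3 genes of the chromosome 13 run, B020031M17Rik, BC147527 and Gm21818, and Gm21293. BC147527 differed by 1.06 with rescue and by -0.025 without (interaction 1.09, adjusted p = 0.0042), and Gm21293 by 1.48 and 0.58 (interaction 0.89, adjusted p = 8.5e-05). No gene of the Zscan4 run was called in the interaction, where Zscan4d had a value of 0.65 (adjusted p = 0.0030) and Zscan4f of 0.29 (adjusted p = 0.13).

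In the second direction, where the response was lower under rescue, 4 genes are given as examples. Sox6, a transcription factor of cartilage and muscle, was at 1.15, 0.81 and 1.04 in si-CTL and 2.33, 2.73 and 2.56 in si-Rsl24d1 without rescue, and at 1.52, 1.72 and 2.07 and 1.73, 1.75 and 2.01 with rescue. Its interaction was -1.48 (adjusted p = 8.5e-05), and the rescued groups overlapped where the unrescued ones did not. Plagl1 differed by 2.28 without and 0.86 with rescue (interaction -1.43, adjusted p = 8.5e-05). Smoc2, a secreted matrix protein, differed by 1.62 and 0.47 (interaction -1.15, adjusted p = 3.5e-06), and Cdh11, a mesenchymal cadherin, by 1.66 and 0.48 (interaction -1.18, adjusted p = 5.3e-06). These 4 were called under both scalings. Contractile actin genes had 6 of 19 upregulated without rescue and 1 with it, and extracellular matrix genes 9 of 20 and 1. Primitive endoderm genes had 7 of 16 and 0, and imprinted genes 6 of 21 and 1. Of all genes, 1.45% were upregulated without rescue and 0.693% with it. Against 0.511% of all genes, the interaction was called for 0, 1, 0 and 3 members of these lists. Under median of ratios scaling 4, 4, 4 and 3 of them were upregulated without rescue, and the interaction was called for 0, 1, 0 and 1. The cholesterol list had a median of 0.24 without rescue, where the median of all genes was 0.13, and of -0.33 with it. The interaction was called for 2 of its 16 genes, both lower with rescue, against 0.413% of all genes in that direction. Under median of ratios scaling the medians were 0.070 and -0.29, and the interaction was called for none.

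**Figure D4:**
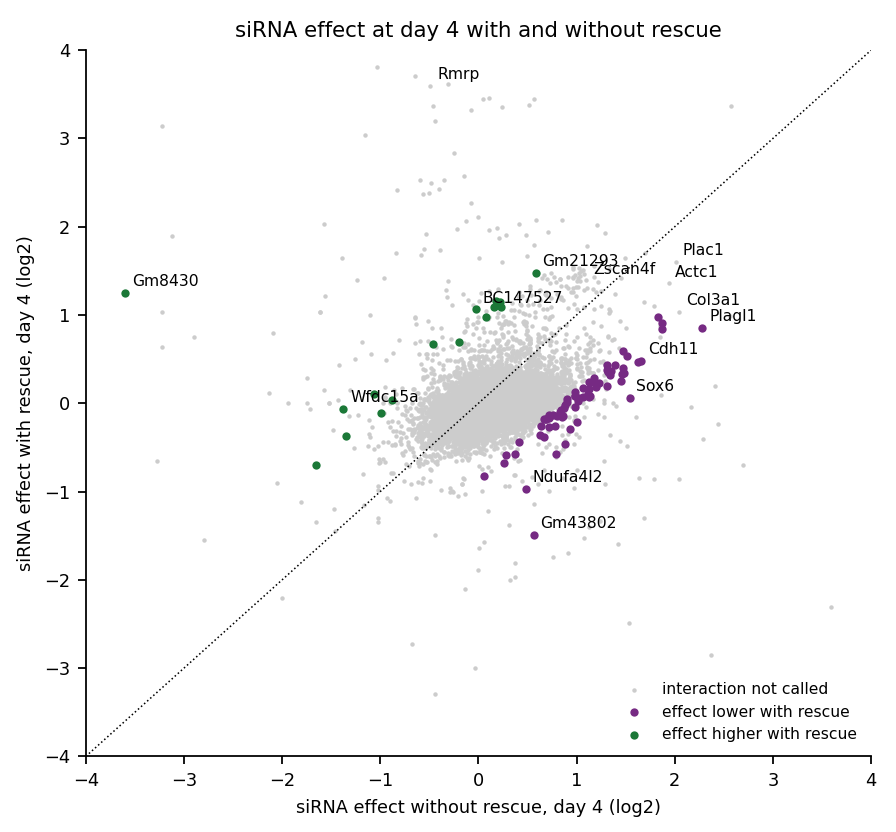
Difference between si-Rsl24d1 and si-CTL at day 4 on the log2(TPM + 1) scale without rescue (x axis) and with rescue (y axis), 1 point per gene tested, with genes of a called interaction in purple (lower with rescue) and green (higher with rescue) and 4 genes outside the axes. The 68 purple genes outnumber the 16 green ones on this scale.

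The siRNA contrast under rescue at day 0, again without a shared library, had few called genes in common with day 4. There the siRNA upregulated 193 genes (1.17%) and downregulated 31 (0.188%), 224 in all (1.36%), and the effect differed between the days for 346 genes (2.1%), being higher at day 4 for 103 (0.626%) and lower for 243 (1.48%). Only 4 upregulated genes were shared (Gm2056, Gm21293, Gm50180 and Gm8332), 3.51% of the day 4 list and 2.07% of the day 0 list. The same sign at day 0 was found in 98 of the 114, where the median of all genes was 0.0045. Of the 114, the interaction with the day was called for 35. Actc1 was one of them (-0.25 at day 0, interaction 1.61, adjusted p = 8.4e-07), as were Plac1 (0.069 at day 0, interaction 1.53, adjusted p = 6.3e-08) and Gjb2 (-0.33 at day 0, interaction 1.57, adjusted p = 3.8e-08). The Zscan4 run had a median of 0.63 at day 0 with none of its 8 genes called, and the interaction was called for 2 of them. The genes of this run were chosen for their rise at day 4, so this comparison favours day 4 from the start.

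Several groups that changed at day 0 under rescue were not called at day 4. Mdm2 differed by 1.62 at day 0 (interaction -1.55, adjusted p = 1.7e-10). Of 31 p53 targets 10 were upregulated there (1.17% of all genes were) against 0 at day 4 (0.693%). The interaction was called for 11, all lower at day 4, against 1.48% of all genes. A list of 4 genes chosen from these same samples for their rise at day 0 (Cpz, Ltb4r2, Shisal2b and Gpx3), which is not independent evidence of its direction, had 4 upregulated at day 0 with a median of 2.16 and none at day 4 with a median of 0.027. Cpz, a secreted carboxypeptidase, was at 0.89, 0.67 and 0.84 against 3.10, 3.05 and 3.25 at day 0 and at 0.96, 1.10 and 1.06 against 0.98, 1.13 and 1.23 at day 4, where the groups overlapped. The median of ATF4 targets changed sign. It was -0.65 at day 0 and 0.27 at day 4. At day 0, 1 of 38 was upregulated and 11 downregulated, against 1.17% and 0.188% of all genes. The interaction was called for 22 that were higher at day 4 and 1 that was lower, against 0.626% and 1.48%. Chac1 was at 4.62, 4.63 and 4.51 against 2.18, 2.40 and 2.12 at day 0 and at 3.22, 2.35 and 2.72 against 3.74, 3.62 and 3.34 at day 4 (interaction 3.16, adjusted p = 9.6e-08).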

How the data were processed

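RNA-seq was measured in 24 libraries, 3 for each of 8 groups. The authors quantified reads with Salmon and summed transcripts per gene with tximport, according to their methods. The deposited table holds log2(TPM + 1) values for 54242 gene symbols. The methods name an index of protein-coding genes, whereas the table also lists pseudogenes and non-coding RNAs. The submitters' processing notes name STAR 2.7.8a and Salmon 1.4.0, and a human genome build, which the mouse gene symbols go against. TPM sum to 1000000 in each library, so depth is unknown and no count model or counting interval was possible. Of the symbols, 52259 were matched to gencode vM21 on GRCm38.

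limma 3.58.1 (R 4.3.3) was fitted once (8 group means over all libraries, empirical Bayes with trend, no replicate block, two-sided, Benjamini-Hochberg adjustment over all 16447 genes with a mean of at least 0.5). The fit was tested on simulated data. Thresholds were those of the study, with the fold taken on TPM + 1. Alternatives were 0.1 or 2 in place of 1 added to TPM, no filter or one at 1.5, only the groups compared, median of ratios scaling, each library left out, no fold threshold and a block for the replicate number. Genes sharing at most 10% of 31-base words were tested alone, an alternative added after seeing the data. Same-numbered libraries of the 2 day 4 rescue groups did not deviate together (residual correlations -0.0772, -0.00386 and -0.0359), so replicates were not treated as paired. These values do not show whether the cultures were prepared in parallel, and the study compared gene signatures of its replicates with paired t tests.

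The members and the 28 gene lists, written from general knowledge, were chosen with earlier results of these data known. Named genes are a fixed set around RSL24D1, p53 and pluripotency, the 12 largest called rises and falls with named genes first, filled up for falls by smallest adjusted p, the called or extreme genes of each list, and the 3 largest called interactions in each direction. Tcstv3, Zfp352, Tdpoz4, Usp17la, Prrx1, Col3a1, Smoc2, Cdh11, Zscan4b and the unnamed genes of the runs and the overlaps were chosen after their values were seen. Sequences come from RefSeq. Figures were drawn with matplotlib 3.10.9.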

Additional observations from a re-analysis of the deposited data

Results flagged for a closer look

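The effect of the siRNA at day 4 differed between cells with and without rescue for 84 genes by the test of the interaction. The largest called values below 0 were Gm43802 at -2.06, Sox6 at -1.48 and Ndufa4l2 at -1.46, and the largest above 0 were Gm8430 at 4.85, Wfdc15a at 1.32 and Gm16379 at 1.17. Ndufa4l2, a gene induced when oxygen is low, differed by -0.97 under rescue and by 0.48 without it. Wfdc15a, a gene of the whey acidic protein family, was at 2.81, 2.99 and 2.90 against 2.83, 2.78 and 2.91 under rescue, where the groups overlapped, and at 3.31, 3.53 and 3.07 against 2.28, 1.94 and 1.58 without it. Gm16379 differed by 0.10 under rescue and by -1.07 without. Gm8430, with 93.0% of words shared, spread from 4.41 to 5.97 in si-CTL and from 5.25 to 6.96 in si-Rsl24d1 under rescue, and without rescue from 8.74 to 9.46 and from 5.02 to 5.82. Under median of ratios scaling the interactions of Gm43802 (-1.93, adjusted p = 0.011) and Gm8430 (5.06, adjusted p = 0.012) were not called.

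The effect under rescue differed between day 4 and day 0 for 346 genes. The largest called values below 0 were Ltb4r2, a leukotriene receptor gene, at -2.32, Cpz at -2.27 and Dcxr, a sugar and carbonyl reductase gene, at -2.04. Ltb4r2 was at 0.96, 0.73 and 0.72 against 3.03, 2.89 and 3.18 at day 0 and at 0.43, 0.60 and 0.48 against 0.50, 0.32 and 0.42 at day 4. Dcxr rose by 1.57 at day 0 and was lower by 0.47 at day 4. The largest above 0 were Rny3 at 5.61, Gm22513 at 4.94 and Gm14308 at 4.39, all with wide spread between libraries. Rny3, a short RNA without a poly-A tail, was listed at 0 in all 3 si-CTL libraries at day 4 and at 2.61, 4.30 and 3.22 in si-Rsl24d1, and at day 0 at 4.23, 5.5 and 3.52 against 0, 4.08 and 2.48, so that its value depends on the 1 added to TPM and is no fold change. Gm22513 was at 2.13, 3.13 and 0.83 against 4.73, 6.21 and 5.48 at day 4, and Gm14308 at 0.69, 0.79 and 2.45 against 2.95, 3.59 and 2.60.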

How the results depend on the processing

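The count of 120 genes at day 4 under rescue went to 78 with 2 added to TPM, to 965 without the fold threshold and to 32 among genes that share at most 10% of words, a test that leaves out 88 of the 120. Under median of ratios scaling it was 121, 4 of them downregulated, with 117 genes shared. Leaving out 1 library at a time gave 106 to 124 there, 209 to 398 without rescue at day 4, 209 to 257 at day 0 under rescue, 42 to 289 for the interaction with rescue, 323 to 372 for that with the day, and 0.12 to 0.20 for the difference in Rsl24d1. The other counts moved as follows, and the cause was not tested. At day 4 without rescue the 268 genes became 601 with 0.1 and 158 with 2 added to TPM, 166 under median of ratios scaling and 5087 without the fold threshold. At day 0 under rescue the 224 became 460 with 0.1 added and 2261 without the fold threshold. For the interaction with rescue the 84 became 158 with 0.1 and 54 with 2 added, 54 with only the groups compared, 47 under median of ratios scaling and 1472 without the fold threshold, and for that with the day the 346 became 523 with 0.1 added and 1637 without it. With the replicate number as a block the 5 counts were 117, 263, 225, 71 and 341, the difference in Rsl24d1 was 0.15, and Gng13 and Rmrp were no longer called. In the labels the libraries share only a number.

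Of 33 named genes called at day 4 under rescue, 19 were called in every alternative run that tested them, and none changed sign in any such run. Of 74 named genes not called, 11 changed sign in at least 1 run. A gene left out of a run, for its shared words or its low mean, was not tested there. Among the 19, the Zscan4 genes and Gm21293 were left out of the test of genes that share few words, so that run does not bear on their calls. With 2 added to TPM, Aldoc, Atf5, BC147527, Gng13, Ndufa4l2, Plagl1, Prrx1, Rmrp, Scel and Tcstv3 were no longer called. With only the compared groups in the limma fit, 6 named genes lost their call by adjusted p. These were Atf5 (0.021), BB287469 (0.015), Col3a1 (0.011), Gm43802 (0.053), Gng13 (0.040) and Rmrp (0.033). Depth is unknown, so what it limits cannot be stated.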
